A study of Mus musculus with 6 samples.

Results

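The MHC and antigen presentation genes examined here are the rows of the authors' deposited table whose mouse symbol starts with H2-, together with B2m, Tap1, Tap2, Tapbp, Tapbpl, Nlrc5, Ciita, Cd74, Erap1, Cd1d1, Mr1 and Fcgrt. The rule used symbols only and no measured value, and it found 57 of 48526 genes. Of these, 10 had a mean of 0, 6 had a p-value but too few reads for an adjusted p, and 41 were tested. MHC class I molecules carry peptides from inside the cell to its surface, where CD8 T cells and natural killer cells read them. They need the light chain B2m, the Tap transporter that brings peptides into the endoplasmic reticulum, and loading factors such as tapasin. MHC class II molecules carry peptides from endosomes to CD4 T cells, are guided by the invariant chain Cd74, and in the brain are best known from microglia, border macrophages, dendritic cells and B cells.

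The libraries held messenger RNA of oligodendrocyte precursor cells (OPCs), the glia from which myelinating oligodendrocytes arise. The cells were sorted by YFP and by the DNA stain Hoechst from the forebrains, freed of meninges, of mice at postnatal day 6. The ctrl group had 3 samples with the genotype CNP1::Cre, conditional Rosa26stopflox-YFP, and the Ep400 cko group had 3 samples that carried conditional Ep400 besides these alleles. Cre was thus driven by the promoter of Cnp, an oligodendroglial gene, in both groups, and both carried the YFP reporter. All animals had a mixed 129SvJ/C57Bl/6J background, and the sources used here give neither the H2 haplotype of an animal nor the number of animals behind a sample. Ep400 is the ATPase of a complex that exchanges histones in chromatin, and the comparison asks which transcripts differ without it.

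The authors' deposited table gives each gene a mean normalised read count over all 6 libraries, a log2 fold change with its standard error (SE), a Wald test, and a p-value adjusted by Benjamini-Hochberg over all tested genes. A gene is called higher or lower at an adjusted p under 0.05, and p-values measure the spread between these samples. The fold changes are moderated towards 0, so they understate the change of low or variable genes. The means sum to 80407433 normalised reads, of which the members make up 72600. Ep400 itself stood at 0.01 ± 0.17 (SE, log2) in the authors' deposited table with an adjusted p of 0.97, and a count over the whole gene does not resolve a deleted exon, so it is no check on the deletion. The direction of the comparison rests on the name of the deposited table. The 15 markers of OPCs and oligodendrocytes were all listed with reads. So were markers of cells outside this lineage: the implied summed level of 20 microglial and macrophage markers was 811709 normalised reads in ctrl and 588579 in Ep400 cko.

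The table holds no values per sample. For genes with a mean up to 1000 the whole reads of each library were worked out, because each deposited mean adds up whole reads, every one weighted by the scale of its library. The 6 libraries are called ctrl a, b and c and Ep400 cko a, b and c by falling scale factor, which ran from 0.967 to 1.122. Their groups follow from the sign of the authors' fold change for genes read in 1 library alone, and they cannot be tied to named samples. Reads were recovered for 34 of the 57 members, 28 of them tested. For members with a mean over 1000, group means implied by the deposited mean, fold change and SE are given instead, with no SD.

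Among the 41 tested members, 1 was higher and 4 were lower in Ep400 cko in the authors' deposited table; 36 were not called. Over all tested genes 12.2% passed, 7.64% higher and 4.61% lower, so the 5 of 41 members are no more frequent than the background. The 4 lower genes were Cd74, H2-Ea-ps and H2-Ob of the class II system and Fcgrt, an Fc receptor with a class I fold. The higher gene was H2-Q5, a class I gene that was barely read in ctrl. The median log2 fold change of the tested members was -0.03 in the authors' deposited table, beside -0.00 for all tested genes. In bulk RNA, fewer cells of a type and less RNA per cell cannot be told apart. That holds for every difference given here.

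**Figure D1:**
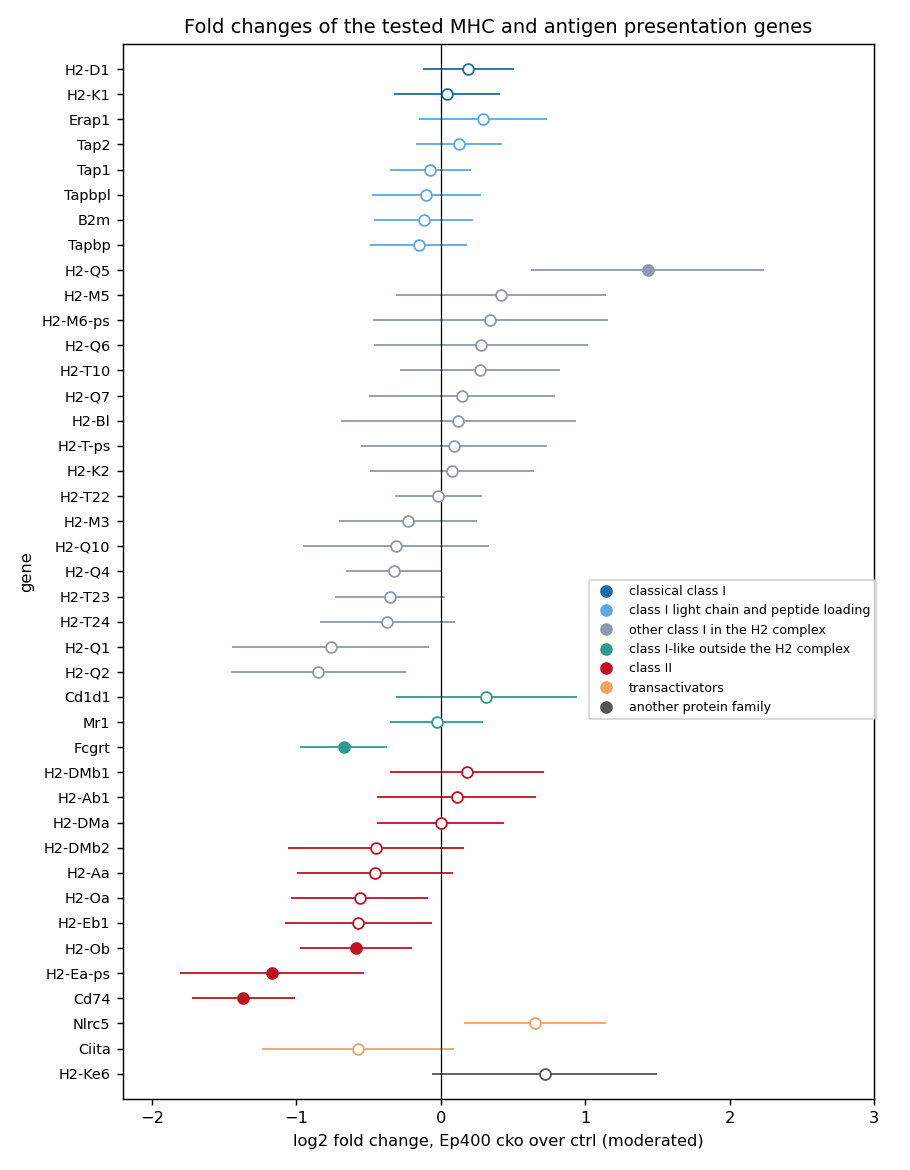
Moderated log2 fold change of Ep400 cko over ctrl in the authors' deposited table (x axis) for the 41 tested members (y axis), coloured by role. Points are estimates, bars are 95% intervals, and filled points passed an adjusted p of 0.05; the class II genes lie mostly left of 0, with Cd74 farthest left at -1.37, while the classical class I genes and the loading genes lie around 0.

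Levels differed widely between the members. Per kilobase of the longest annotated transcript, B2m had the highest mean level over all 6 libraries with 21646 normalised reads per kilobase in the authors' deposited means. Fcgrt followed with 5782, H2-K1 with 4044, Cd74 with 2796, Tapbp with 2301 and H2-D1 with 2218 normalised reads per kilobase. The class II chains lay far lower, with 385 normalised reads per kilobase for H2-Ab1, 156 for H2-Eb1 and 124 for H2-Aa. Among the tested members, the lowest levels were those of H2-Q5 with 8.07 and Ciita with 9.06 normalised reads per kilobase. The 10 members at 0 were H2-M1, H2-M11, H2-Q3 and the 7 genes and pseudogenes of the H2-M10 group, several of which are known from vomeronasal neurons.

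**Figure D2:**
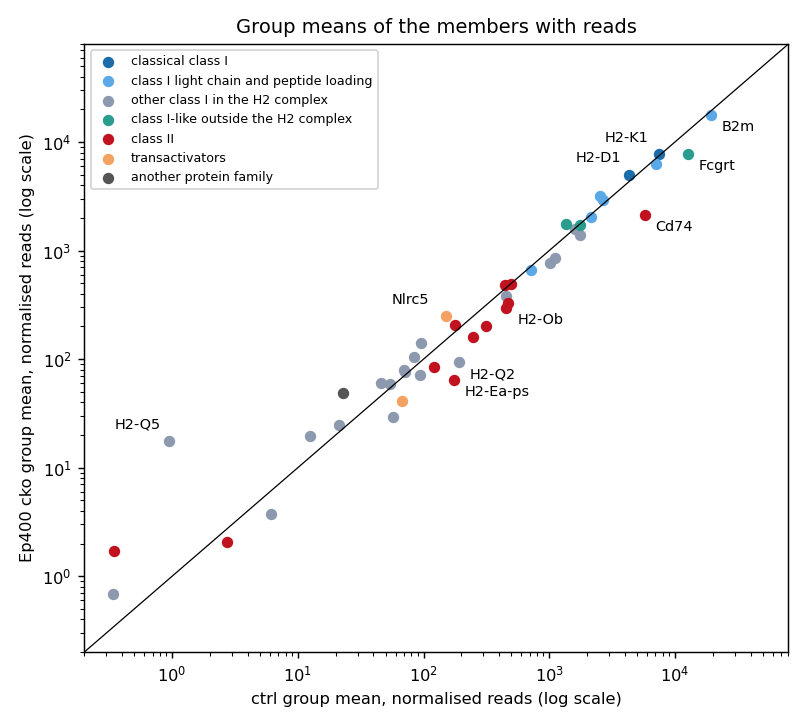
Group mean of normalised reads in ctrl (x axis) and Ep400 cko (y axis), both on log scales, for members with reads in both groups, coloured by role; means come from recovered reads or, for abundant members, from the deposited mean, fold change and SE. The line marks equal means; Cd74 and Fcgrt lie below it at the top right, and H2-Q5 lies above it at 0.937 normalised reads in ctrl against 17.7 in Ep400 cko.

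The classical class I heavy chains, which present peptides to CD8 T cells, were abundant and did not pass the test. H2-K1 had implied means of 7461 normalised reads in ctrl and 7697 in Ep400 cko. Its log2 fold change was 0.04 ± 0.19 (SE; 95% interval -0.33 to 0.41) in the authors' deposited table, with an adjusted p of 0.92. H2-D1 had implied means of 4343 in ctrl and 4983 in Ep400 cko. Its log2 fold change was 0.19 ± 0.16 (95% interval -0.13 to 0.51) in the authors' deposited table, with an adjusted p of 0.49. The intervals leave room for changes in either direction, so the 2 genes are not shown to be alike in both groups.

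None of the 6 genes of the class I light chain and peptide loading passed the test, and their median log2 fold change was -0.09 in the authors' deposited table. B2m, the light chain of all class I molecules, had implied means of 19422 normalised reads in ctrl and 17808 in Ep400 cko and a fold change of -0.12 ± 0.17 (SE, log2; 95% interval -0.46 to 0.22; adjusted p = 0.72, from the authors' deposited table). The subunits of the peptide transporter stood at -0.07 ± 0.14 for Tap1 (adjusted p = 0.80) and 0.12 ± 0.15 for Tap2 (adjusted p = 0.66, from the authors' deposited table). Tapbp, which encodes tapasin and bridges the transporter to class I, stood at -0.15 ± 0.17 (adjusted p = 0.62, from the authors' deposited table). Erap1, which trims peptides in the endoplasmic reticulum, stood at 0.29 ± 0.23 (adjusted p = 0.45, from the authors' deposited table). Tapbpl, a peptide editor related to tapasin, was recovered at 773, 785 and 581 normalised reads in ctrl a, b and c and at 628, 730 and 631 in Ep400 cko a, b and c. The groups overlapped, and its log2 fold change was -0.10 ± 0.19 (adjusted p = 0.80, from the authors' deposited table). Tap1 overlaps Psmb9, and Tapbpl overlaps Vamp1, on the opposite strand, and the sources used here do not say whether reads were counted by strand.

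Genes that act beside these in the class I path, but are no members, did not pass either. Of 12 tested (the immunoproteasome, its activator and chaperones) 0 were higher and 0 lower in the authors' deposited table at an adjusted p under 0.05, with a median log2 fold change of -0.17. Over all tested genes 12.2% passed. The nearest to the threshold were Psme2, a subunit of the proteasome activator, with -0.43 ± 0.16 (adjusted p = 0.051) and the immunoproteasome subunit Psmb9 with -0.54 ± 0.20 (adjusted p = 0.054, from the authors' deposited table). Psmb9 was recovered at 647, 701 and 532 reads in ctrl a, b and c and at 435, 431 and 332 reads in Ep400 cko a, b and c, and the groups did not overlap. Its mean of 509 lies just above the range for which a share of such genes was worked out. Psme2 and Psmb9 were named after their values were seen.

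Some class I genes share long stretches of sequence, which limits what reads can tell apart. The coding stretch below, of 60 bases, is shown because 4 of the genes share it letter for letter. It runs from coding base 739 to 798 of H2-K1, whose gene lies at chr17:33996017-34000347 on the minus strand (GRCm38, GENCODE transcripts), and lines up with coding bases 748 to 807 of H2-D1, 739 to 798 of H2-Q7 and H2-Q6 and 732 to 791 of H2-Q5. The capital marks the 1 base at which H2-Q5 differs from H2-K1.
H2-K1: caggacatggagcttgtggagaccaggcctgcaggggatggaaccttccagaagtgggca
H2-D1: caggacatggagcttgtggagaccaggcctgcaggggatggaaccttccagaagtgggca
H2-Q7: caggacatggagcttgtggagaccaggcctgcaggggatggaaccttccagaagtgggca
H2-Q6: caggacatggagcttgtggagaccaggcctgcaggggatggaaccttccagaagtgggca
H2-Q5: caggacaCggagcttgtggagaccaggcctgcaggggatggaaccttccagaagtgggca
A read inside such a stretch has no single origin, and the sources used here do not say how the authors treated such reads. Of the 50-base windows of their transcripts, H2-K1 shared 8.11% and H2-D1 14.3% with transcripts of other genes. H2-Q5 shared 35.4%, H2-Q6 35.0%, H2-Q7 28.5%, H2-T10 50.1% and H2-T22 58.5%. H2-Q4 shared 36.9%, most with Gm11131, an overlapping gene on the opposite strand. Shares were lower for H2-Q2 with 8.74% and H2-T24 with 3.23%. For Cd74, Fcgrt, B2m, H2-Ob and H2-Ea-ps the share was 0%, so no such window of theirs occurs in another annotated transcript. The values of genes with a high share, such as H2-Q5, H2-Q6, H2-Q7, H2-T10 and H2-T22, are therefore uncertain as to which copy was read.

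The other class I genes of the H2 complex counted 30, of which 17 were tested. Of these, 1 was higher, 0 were lower and 16 were not called in the authors' deposited table, with a median log2 fold change of 0.07. Calls over all tested genes were 7.64% higher and 4.61% lower, so 1 higher gene of 17 is no more frequent than the background. H2-Q5, a polymorphic pseudogene in the annotation at chr17:35394126-35397800, was recovered at 2, 0 and 1 reads in ctrl a, b and c and at 24, 15 and 13 reads in Ep400 cko a, b and c. All 3 Ep400 cko libraries lay above all 3 ctrl libraries. With 3 reads in ctrl and 52 in Ep400 cko, the ratio scaled for library size was 18.3-fold, with an exact 95% counting interval of 5.91 to 91.4 that covers counting error only. The moderated log2 fold change was 1.43 ± 0.41 (adjusted p = 0.0088, from the authors' deposited table). The log2 ratio of the group means was 4.24, and it fell to 3.66 without ctrl b and rose to 5.11 without ctrl a.

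Relatives that share much sequence with H2-Q5 were read in both groups. H2-Q7, one of the genes for Qa-2, was recovered at 60.6, 52.4 and 95.8 normalised reads in ctrl a, b and c and at 84.5, 57.1 and 95.1 in Ep400 cko a, b and c. H2-Q6, another Qa-2 gene, was recovered at 65.9, 18.1 and 52.5 normalised reads in ctrl a, b and c and at 64.1, 58.1 and 56.9 in Ep400 cko a, b and c. Both overlapped between the groups and did not pass. In the authors' deposited table, H2-Q7 stood at 0.15 ± 0.33 (SE, log2; adjusted p = 0.83) and H2-Q6 at 0.28 ± 0.38 (adjusted p = 0.70). The difference between H2-Q5 and these genes was not tested. Any part of the H2 haplotype, which the sources used here do not give, was not tested either.

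H2-Q1 and H2-Q2 had the lowest fold changes of the other class I genes. H2-Q2 was recovered at 180, 189 and 203 normalised reads in ctrl a, b and c and at 86.5, 140 and 56.9 in Ep400 cko a, b and c. The groups did not overlap, and the mean was 191 ± 11.5 in ctrl and 94.4 ± 42.0 in Ep400 cko (SD, n = 3 each). Its log2 fold change was -0.85 ± 0.31 in the authors' deposited table, with an adjusted p of 0.0501, just above the threshold. Its adjusted p was 0.042 over genes with a mean of at least 100 only, 0.071 with no filter on low genes, and 0.18 with length and GC trends removed. H2-Q1 was recovered at 41.9, 61.4 and 69.0 normalised reads in ctrl a, b and c and at 23.4, 33.7 and 30.0 in Ep400 cko a, b and c. Its groups did not overlap either, and its log2 fold change was -0.76 ± 0.35 (adjusted p = 0.14, from the authors' deposited table).

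**Figure D3:**
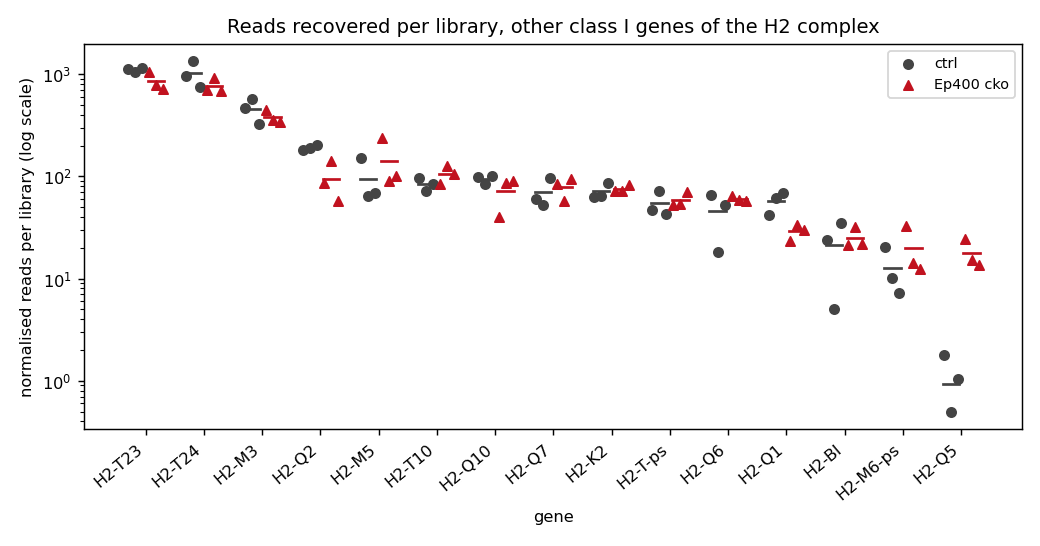
Normalised reads per library (y axis, log scale) of the 15 tested other class I genes of the H2 complex with recovered reads (x axis, by falling mean). Circles are ctrl libraries, triangles Ep400 cko libraries and bars group means; the ctrl b library of H2-Q5 had 0 reads and is drawn at 0.5. H2-Q5, H2-Q1 and H2-Q2 have groups that do not overlap among the genes drawn. Over all recovered genes with a mean under 500, the groups did not overlap in 25.7%.

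The remaining class I genes with a mean over 300 did not pass. H2-T23, whose product Qa-1 presents leader peptides to natural killer receptors, was recovered at 1114, 1055 and 1147 normalised reads in ctrl a, b and c and at 1057, 781 and 720 in Ep400 cko a, b and c. One Ep400 cko library lay among the ctrl libraries, and the log2 fold change was -0.35 ± 0.20 (adjusted p = 0.24, from the authors' deposited table). H2-M3, which presents formylated peptides of bacteria, stood at -0.23 ± 0.24 (adjusted p = 0.60) and H2-T24 at -0.37 ± 0.24 (adjusted p = 0.33) in the authors' deposited table, both with overlapping groups. H2-Q4 stood at -0.33 ± 0.17 (adjusted p = 0.20) and H2-T22, a ligand of gamma delta T cells, at -0.02 ± 0.15 (adjusted p = 0.96, from the authors' deposited table). H2-T22, H2-T23 and H2-T24 overlap the opposite-strand gene A930015D03Rik, which was lower with -0.71 ± 0.18 (adjusted p = 0.0019, from the authors' deposited table). The other tested members of this group, H2-K2, H2-M5, H2-M6-ps, H2-Bl, H2-Q10, H2-T10 and H2-T-ps, had fold changes from -0.31 to 0.42 (log2) in the authors' deposited table and overlapping groups.

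Fcgrt was the 1 gene of the 3 class I-like genes outside the H2 complex that passed, beside 12.2% of all tested genes. Fcgrt encodes the neonatal Fc receptor, which pairs with B2m and returns IgG and albumin from endosomes to the cell surface. Its implied means were 12662 normalised reads in ctrl and 7806 in Ep400 cko, and it fell by 0.67 ± 0.15 on the log2 scale (95% interval -0.97 to -0.37; adjusted p = 0.00057, from the authors' deposited table). The gene lies at chr7:45092990-45103851 on the minus strand (GRCm38) and overlaps the opposite-strand gene Gm45669. Mr1, which presents vitamin B metabolites, stood at -0.03 ± 0.16 (adjusted p = 0.94) and Cd1d1, which presents lipids, at 0.32 ± 0.32 (adjusted p = 0.58, from the authors' deposited table). Cd1d1 shared 25.8% of its windows with other genes, most with Cd1d2. Mean levels per kilobase were 805 normalised reads for Cd1d1 and 545 for Mr1.

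The class II group held 13 members, of which 10 were tested; 0 were higher, 3 were lower and 7 did not pass in the authors' deposited table. The background of lower calls is 4.61%. Of the 10 fold changes 7 were negative, and their median was -0.51 on the log2 scale of the authors' deposited table. The 3 not tested were H2-Eb2, H2-Pa and H2-Pb, with 14, 1 and 6 reads over all libraries. Cd74, the invariant chain that shields the class II groove and steers class II to endosomes, was the most abundant and had the largest fall. Its implied means were 5763 normalised reads in ctrl and 2122 in Ep400 cko, a ratio of 0.368. It fell by 1.37 ± 0.18 on the log2 scale (95% interval -1.73 to -1.01; adjusted p = 3.06e-11, from the authors' deposited table). No copy shared its windows, and its gene overlaps only the microRNA gene Mir5107, on the same strand.

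The classical class II molecules of the mouse are I-A, made of H2-Aa and H2-Ab1, and I-E, made of H2-Ea and H2-Eb1. H2-Ea-ps, the alpha chain gene of I-E, is annotated as a polymorphic pseudogene at chr17:34341959-34344645 on the minus strand. Its reads therefore do not show that an I-E alpha chain was made in these mice, whose H2 haplotype is not given. It was recovered at 149, 189 and 185 normalised reads in ctrl a, b and c and at 42.7, 101 and 49.6 in Ep400 cko a, b and c. All 3 Ep400 cko libraries lay below all 3 ctrl libraries, with 174 ± 22.3 against 64.4 ± 31.8 (SD, n = 3 each). It fell by 1.17 ± 0.32 on the log2 scale (adjusted p = 0.0061, from the authors' deposited table). H2-Eb1, the beta chain gene of I-E, was recovered at 244, 363 and 343 normalised reads in ctrl a, b and c and at 150, 245 and 214 in Ep400 cko a, b and c. The highest Ep400 cko library lay just above the lowest ctrl library, and the log2 fold change was -0.57 ± 0.26 (adjusted p = 0.13, from the authors' deposited table).

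The chains of I-A did not pass. H2-Aa was recovered at 471, 480 and 458 normalised reads in ctrl a, b and c and at 191, 438 and 354 in Ep400 cko a, b and c. The groups did not overlap, but the Ep400 cko libraries spread widely, with 470 ± 11.1 in ctrl against 327 ± 125 in Ep400 cko (SD, n = 3 each). Its log2 fold change was -0.46 ± 0.28 (adjusted p = 0.29, from the authors' deposited table). H2-Ab1 was recovered at 399, 356 and 582 normalised reads in ctrl a, b and c and at 309, 541 and 609 in Ep400 cko a, b and c. Here the groups overlapped, with the lowest and the highest library both in Ep400 cko, and the log2 fold change was 0.11 ± 0.28 (adjusted p = 0.85, from the authors' deposited table). The difference between the partner chains was not tested.

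H2-Oa and H2-Ob form the DO dimer, which in B cells and some dendritic cells restrains DM, the dimer that exchanges the Cd74 fragment in the class II groove for peptides. H2-Ob was recovered at 393, 525 and 450 normalised reads in ctrl a, b and c and at 309, 302 and 275 in Ep400 cko a, b and c. The groups did not overlap, with 456 ± 66.0 against 295 ± 18.1 (SD, n = 3 each). It fell by 0.59 ± 0.20 on the log2 scale (adjusted p = 0.029, from the authors' deposited table). H2-Oa was recovered at 233, 276 and 233 normalised reads in ctrl a, b and c and at 203, 133 and 147 in Ep400 cko a, b and c. Its groups did not overlap, and its log2 fold change of -0.56 ± 0.24 in the authors' deposited table did not pass (adjusted p = 0.11). H2-Oa shared 17.2% of its windows with other genes, most with BC051537, a gene on the opposite strand.

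The genes of DM did not pass and their libraries overlapped. H2-DMa was recovered at 453, 392 and 641 normalised reads in ctrl a, b and c and at 520, 499 and 466 in Ep400 cko a, b and c, with a log2 fold change of 0.00 ± 0.22 (adjusted p = 1.00, from the authors' deposited table). The genes for the beta chain, H2-DMb1 and H2-DMb2, stood at 0.18 ± 0.27 (adjusted p = 0.73) and -0.45 ± 0.31 (adjusted p = 0.38, from the authors' deposited table). They share 27.2% and 30.9% of their windows, most with each other, so reads between them are uncertain.

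**Figure D4:**
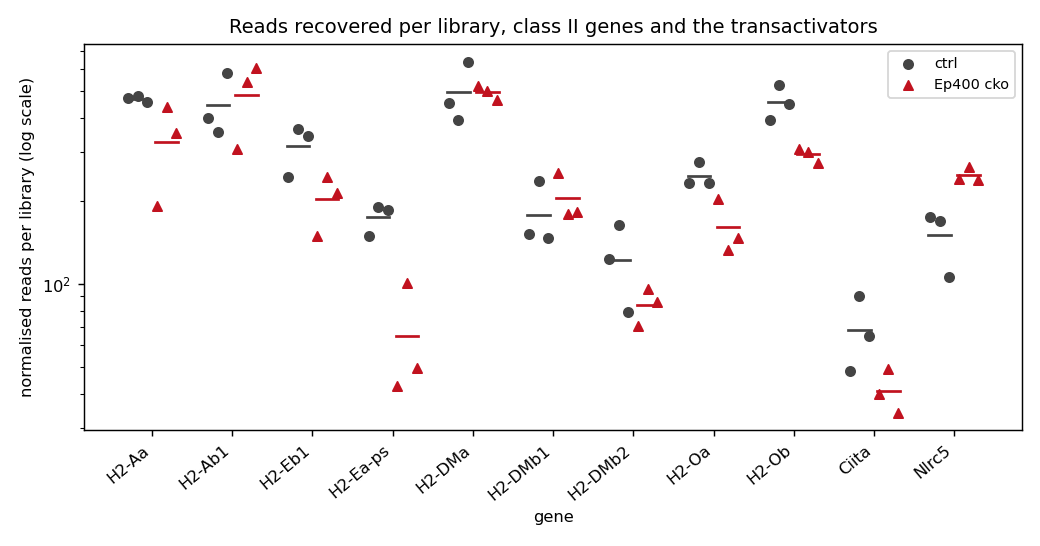
Normalised reads per library (y axis, log scale) of the class II genes with recovered reads and an adjusted p, and of the transactivators Ciita and Nlrc5 (x axis). Circles are ctrl libraries, triangles Ep400 cko libraries in the order a, b and c, and bars group means. H2-Ea-ps, H2-Ob, H2-Aa and H2-Oa have all Ep400 cko libraries below ctrl, and Nlrc5 has them above. Over all recovered genes with a mean under 500, 10.6% lay below and 15.0% above in this way. Ep400 cko a is the lowest library for H2-Aa, H2-Ab1, H2-Eb1, H2-Ea-ps and H2-DMb2.

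The transactivators bind no DNA themselves but join factors already on the promoters, Ciita above all at class II genes and Nlrc5 at class I genes. Nlrc5 was recovered at 175, 169 and 106 normalised reads in ctrl a, b and c and at 240, 265 and 239 in Ep400 cko a, b and c. The groups did not overlap, with 150 ± 38.1 against 248 ± 14.9 (SD, n = 3 each), and the log2 fold change of 0.65 ± 0.25 in the authors' deposited table did not pass (adjusted p = 0.068). Ciita was recovered at 48.1, 90.6 and 64.9 normalised reads in ctrl a, b and c and at 39.7, 49.0 and 34.1 in Ep400 cko a, b and c. Its groups overlapped, and its log2 fold change was -0.57 ± 0.34 (adjusted p = 0.28, from the authors' deposited table). The 2 estimates have opposite signs; the difference between them was not tested.

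Of all tested genes with a mean under 500, reads were recovered for 7941 of 8108. In 25.7% of those the groups did not overlap, with Ep400 cko above in 15.0% and below in 10.6%. Of the 25 tested members in that range, 3 lay above (H2-Q5, Nlrc5 and H2-Ke6), 6 lay below (H2-Ea-ps, H2-Ob, H2-Oa, H2-Aa, H2-Q1 and H2-Q2) and 16 overlapped. An exact permutation test of 3 against 3 libraries cannot go below a p of 0.1, so no test was made on single genes. H2-Ke6 (Hsd17b8) is a steroid and fatty acid enzyme named for its place in the complex. It stood at 0.72 ± 0.40 (adjusted p = 0.24, from the authors' deposited table), and 96.3% of its windows are shared with other genes, most with the overlapping gene Gm20427.

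The proteins at class II promoters were examined next. X boxes are bound by the RFX complex, cyclic AMP response elements (CRE) by CREB, and CCAAT boxes by NF-Y. Of 7 tested genes for these factors, 1 was higher, 0 were lower and 6 did not pass in the authors' deposited table. The share of higher calls over all tested genes was 7.64%. Rfxank, a subunit of RFX, rose by 1.16 ± 0.17 on the log2 scale (adjusted p = 8.55e-10, from the authors' deposited table), with implied means of 2498 normalised reads in ctrl and 5766 in Ep400 cko. Its gene overlaps Nr2c2ap on the opposite strand. Nfya, the most abundant of the 7, stood at -0.03 ± 0.19 (adjusted p = 0.94, from the authors' deposited table).

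Promoter windows of 3 class II genes with negative fold changes, picked with their values in view, are shown as examples of the boxes that these factors read, with 250 bases before and 50 after the annotated start, 5′ to 3′ (RefSeq, GRCm38.p6). They are H2-Ob at chr17:34238655-34238954 on the plus strand, H2-Eb1 at chr17:34305617-34305916 on the plus strand and H2-Aa at chr17:34287774-34288073 on the minus strand. Capitals mark the letters CTAGCAAC (an X box core), TGACG (the CRE core) and CCAAT, each on either strand.
H2-Ob: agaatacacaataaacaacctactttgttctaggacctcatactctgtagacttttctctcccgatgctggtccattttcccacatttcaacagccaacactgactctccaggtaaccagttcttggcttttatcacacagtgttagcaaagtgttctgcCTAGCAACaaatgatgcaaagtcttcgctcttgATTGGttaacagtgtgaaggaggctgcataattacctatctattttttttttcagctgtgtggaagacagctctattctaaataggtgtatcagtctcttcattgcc
H2-Eb1: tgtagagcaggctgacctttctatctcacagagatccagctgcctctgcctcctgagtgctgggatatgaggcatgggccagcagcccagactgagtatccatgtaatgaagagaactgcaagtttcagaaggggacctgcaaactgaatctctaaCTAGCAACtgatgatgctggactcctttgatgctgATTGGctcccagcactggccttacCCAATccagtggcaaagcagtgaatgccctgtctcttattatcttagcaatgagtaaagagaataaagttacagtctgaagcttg
H2-Aa: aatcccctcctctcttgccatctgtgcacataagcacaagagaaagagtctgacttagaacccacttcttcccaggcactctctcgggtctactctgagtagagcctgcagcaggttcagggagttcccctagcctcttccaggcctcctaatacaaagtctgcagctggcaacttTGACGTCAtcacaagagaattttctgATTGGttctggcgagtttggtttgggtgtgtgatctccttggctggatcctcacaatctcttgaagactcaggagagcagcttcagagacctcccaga
A promoter was found for 38 of the 57 members. CTAGCAAC was in 1.32% of all 32851 promoter windows and in 4 of the 38, H2-Eb1, H2-Eb2, H2-Ob and Mr1. CCAAT was in 37.4% of all windows and in 32 of the 38, among them all 8 class II genes that had a window. The class II group held 13 members, and Cd74, H2-Ea-ps, H2-Ab1, H2-Pa and H2-Pb had no window. The motifs were thus not searched for Cd74 and H2-Ea-ps, which were called lower. TGACG was in 20.8% of all windows and in 15 of the 38. H2-Oa, H2-DMa, H2-DMb1 and H2-DMb2, not shown, held CCAAT and neither of the other motifs. A match is a description of letters and not a site.

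The classical class I promoters are shown beside them for the kappa B site, which NF-kappa B binds. They are H2-K1 at chr17:34000298-34000597 on the minus strand and H2-D1 at chr17:35262844-35263143 on the plus strand (RefSeq, GRCm38.p6). Capitals mark GGGATTCCC, TGACG and CCAAT on either strand.
H2-K1: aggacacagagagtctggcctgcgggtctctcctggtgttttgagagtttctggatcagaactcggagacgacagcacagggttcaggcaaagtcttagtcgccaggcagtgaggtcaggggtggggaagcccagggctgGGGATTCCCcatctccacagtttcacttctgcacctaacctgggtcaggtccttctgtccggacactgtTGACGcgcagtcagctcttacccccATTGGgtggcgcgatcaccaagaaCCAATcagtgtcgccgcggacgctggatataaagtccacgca
H2-D1: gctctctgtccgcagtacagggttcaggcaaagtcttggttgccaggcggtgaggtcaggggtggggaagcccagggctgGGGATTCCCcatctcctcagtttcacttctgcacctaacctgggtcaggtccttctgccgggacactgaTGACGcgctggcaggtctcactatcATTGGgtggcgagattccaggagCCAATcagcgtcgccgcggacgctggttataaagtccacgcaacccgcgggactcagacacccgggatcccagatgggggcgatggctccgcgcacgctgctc
GGGATTCCC was in 0.353% of all windows, and in H2-K1, H2-D1, H2-Q6 and H2-Q7 among the members. Those 4 genes did not pass the test. Of 20 tested genes of the interferon and NF-kappa B path that feeds these promoters, 0 were higher, 1 was lower and 19 did not pass in the authors' deposited table, with a median log2 fold change of -0.12. The share of lower calls over all tested genes was 4.61%. The lower gene was Ifnar2, a chain of the type I interferon receptor, with -0.50 ± 0.17 (adjusted p = 0.028, from the authors' deposited table). It overlaps Gm21970 on the same strand. Jak1, the most abundant of the 20, stood at 0.20 ± 0.19 (adjusted p = 0.56, from the authors' deposited table).

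Genes that act with class II outside the members were read against the background of 4.61% lower calls. Of 12 tested genes of the endosomal path, 0 were higher and 1 was lower in the authors' deposited table, with a median log2 fold change of -0.23. The lower gene was Ifi30, a thiol reductase that opens disulphide bonds of antigens, with -0.56 ± 0.17 (adjusted p = 0.011, from the authors' deposited table). Among 9 tested genes of co-stimulation and class I receptors, 0 were higher and 2 were lower in the authors' deposited table. Pirb, an inhibitory receptor for class I, was recovered at 977, 973 and 831 reads in ctrl a, b and c and at 316, 282 and 451 in Ep400 cko a, b and c, and fell by 1.23 ± 0.22 on the log2 scale (adjusted p = 4.08e-06, from the authors' deposited table). Cd40, a receptor of antigen-presenting cells for help from T cells, was recovered at 606, 627 and 517 reads in ctrl a, b and c and at 401, 307 and 307 in Ep400 cko a, b and c. It fell by 0.67 ± 0.20 on the log2 scale (adjusted p = 0.011, from the authors' deposited table). In both genes the groups did not overlap. Over all recovered genes with a mean under 500, as for Cd40, that held for 25.7%. Pirb, with a mean of 630, lies above that range, and no share was worked out there. Pirb has close relatives, the Pira genes, so its reads are uncertain too.

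Some markers of cells known to carry class II were lower too. Of 20 tested markers of microglia and macrophages, 0 were higher, 3 were lower (C1qa, P2ry12 and Cx3cr1) and 17 did not pass in the authors' deposited table, with a median log2 fold change of -0.42. The share of lower calls over all tested genes was 4.61%. Of 15 tested markers of border macrophages, dendritic cells and B cells, 0 were higher and 4 were lower (among them Mrc1, Pf4 and Lyve1) in the authors' deposited table, with a median of -0.36. Their implied summed level was 27257 normalised reads in ctrl and 18488 in Ep400 cko, a ratio of 0.678. Most of that sum was Mrc1, with 15441 in ctrl and 9674 in Ep400 cko. Cd209a, Itgax, Flt3 and Ms4a1 of the same list did not pass, with log2 fold changes of 0.30, -0.08, -0.03 and -0.13 in the authors' deposited table. All 16 markers of that list had reads. The ratio of the summed microglial markers was 0.725, beside 0.368 for Cd74, 0.369 for H2-Ea-ps, 0.616 for Fcgrt and 0.648 for H2-Ob. Their part in the result was not tested.

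Ep400 cko a, the lowest library for the genes of the I-A and I-E chains, was also lowest for some markers of other immune cells. Cd79a, a chain of the B cell receptor, was recovered at 147, 159 and 144 reads in ctrl a, b and c and at 33, 139 and 126 in Ep400 cko a, b and c. Ms4a1, which encodes CD20, was recovered at 70, 79 and 72 reads in ctrl a, b and c and at 9, 117 and 54 in Ep400 cko a, b and c. Ep400 cko a was thus the lowest library for both, and neither passed (adjusted p = 0.55 and 0.88 in the authors' deposited table). Cd79b, the other chain gene of the B cell receptor, did not follow, with 1269, 1128 and 633 reads in ctrl a, b and c and 759, 720 and 563 in Ep400 cko a, b and c. Outside B cells, Ep400 cko a was lowest for Trac of T cells, with 48 reads, and for Cd163 of border macrophages, with 303 reads. For others a different library was lowest: Ep400 cko b for Pf4 (433 reads) and Zbtb46 (734 reads), and Ep400 cko c for Batf3 (208 reads). Ep400 cko a was also lowest for the fibroblast gene Lum, with 249 reads, so low values there were not limited to immune markers. Without Ep400 cko a, the log2 ratio of group means was -1.21 for H2-Ea-ps in place of -1.44, -0.47 for H2-Eb1 in place of -0.64 and -0.25 for H2-Aa in place of -0.52.

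**Figure D5:**
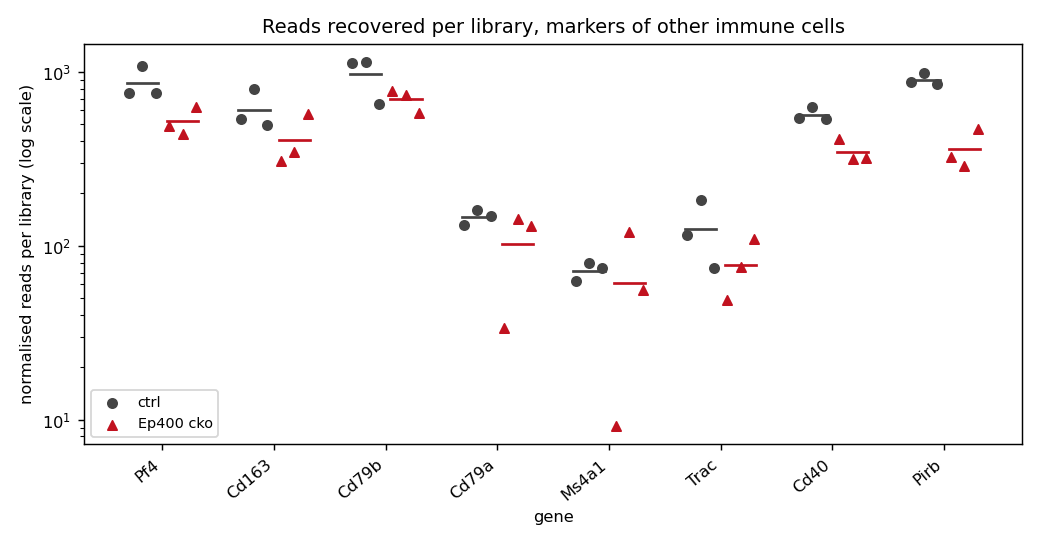
Normalised reads per library (y axis, log scale) of markers of border macrophages (Pf4, Cd163), B cells (Cd79b, Cd79a, Ms4a1) and T cells (Trac), and of Cd40 and Pirb (x axis). Circles are ctrl libraries, triangles Ep400 cko libraries in the order a, b and c, and bars group means. Ep400 cko a is lowest for Cd79a, Ms4a1, Trac and Cd163 but not for Cd79b, Pf4, Cd40 or Pirb. Pf4, Cd40 and Pirb have groups that do not overlap. Over all recovered genes with a mean under 500, as for Cd40, that held for 25.7%. No share was worked out for the higher means of Pf4 and Pirb.

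Cells that read MHC molecules left few reads. Of 10 markers of T and natural killer cells 4 were tested and 0 passed in the authors' deposited table, and Ncr1 was at 0. The implied summed level of the 4 was 155 normalised reads in ctrl and 97.5 in Ep400 cko. Astrocyte markers moved the other way, with 11 of 15 higher and 0 lower in the authors' deposited table and a ratio of summed levels of 2.39. Calls over all tested genes were 7.64% higher and 4.61% lower. Of 15 endothelial markers 2 were lower and 0 higher, and of 15 genes of mural cells and fibroblasts 10 were lower and 0 higher in the authors' deposited table. Of 14 tested OPC and oligodendrocyte markers, 2 were higher and 1 lower in the authors' deposited table. What part any of these had in the values of the members was not tested.

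Neighbouring genes were compared with the members of the H2 complex. Between the outermost H2- genes on chromosome 17, at chr17:33974659-37483552 (GRCm38), 122 tested genes are no members. Of these, 4 were higher (3.28%) and 6 were lower (4.92%) in the authors' deposited table, with a median log2 fold change of -0.13. The higher genes were the complement gene C4b, the GABA receptor gene Gabbr1, Trim39 and Ager. C4b rose by 1.72 ± 0.21 on the log2 scale (adjusted p = 2.48e-13, from the authors' deposited table), so calls in both directions occurred within the complex. It has a close copy, C4a, and reads between them are uncertain.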

How the data were processed

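The submitters' processing notes name STAR 2.5.1, HTSeq, DESeq2 and R with the build mm10, with no role or order. Per the labels' protocols, the kit for the libraries was a stranded one for mRNA. The deposited table lists Ensembl genes, per the file headers, with 0 columns for single samples. The authors' deposited mean is a signal, a normalised read count over all libraries, although its header says raw counts. Fold changes and their errors are on the authors' log2 scale and were moderated by them. The Wald score was deposited too. The authors' deposited p-value and Benjamini-Hochberg p-value could be recomputed within 2.8e-15.

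A count model of 3 against 3 had been planned; without single-sample values the test is, as the plan foresaw, that of the authors, called at an adjusted p under 0.05. Members and gene lists were chosen with earlier results of these data known. Every tested member is named with its fold change or its range. The members called and the fixed names B2m, H2-K1, H2-D1, Tap1, Tap2, Tapbp, Nlrc5, Ciita, Cd74, H2-Aa, H2-Ab1 and H2-Eb1 are given in full, and of each list up to 3 passing members and the most abundant may be named. Other genes, such as H2-Q2 and the immune markers read by library, were picked with their values in view. Most list genes are counted and not named.

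The reads of each library were solved from the deposited mean and checked against the fold change and standard error (within 1e-06). From a mean of 300, reads between 0.2 and 2.5 times the mean were considered. A library's group was read off the authors' own contrast, from the sign of the fold change of genes with reads in that library alone. Tested on simulated data with means up to 1000, 254 of 263 genes were recovered and 0 were solved wrongly. Of 300 shifted means 0 had a solution. The shifted means were taken from genes with low means only, so they are no check on members with higher means. Implied group means take the libraries of a group as equal. They were checked on 235 genes with recovered reads and a mean between 100 and 1000. No check was possible above a mean of 1000, where they are used for the members. The median error was 0.0269%, 3 genes had an error over 1%, and the largest error was 144%. The calculations used Python 3.11.15, numpy 2.4.6, pandas 2.3.3 and scipy 1.17.1. Lengths, coordinates and overlaps come from GENCODE M21 (GRCm38).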

Additional observations from a re-analysis of the deposited data

How the results depend on the processing

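The 4 lower calls and the median fold change of the tested members kept their direction under each alternative run: no filter on low genes, a mean of at least 100, centring on the median of all genes, trends in length and GC content removed, and leaving out the other class I genes. The count of higher members was 1, but 0 with a mean of at least 100 and 0 without the other class I genes, since H2-Q5 is not in those sets. With a mean of at least 100, 5 members were lower, H2-Q2 being added. Of 152 comparisons of single members 150 kept their direction and call. Runs that only filter or leave out genes reuse the authors' fold changes, so no direction of a single gene could change there. Centring took off a median of only -0.0025. Direction was thus open mainly in the run with length and GC trends removed, where 40 members kept direction and call and 1 reversed. H2-Q2 passed in 1 comparison. H2-T22 moved from -0.02 to 0.011 once length and GC trends were taken out (adjusted p = 0.98). The cause was not tested. Leaving out each library in turn, chosen after seeing the data and with no test, gave log2 ratios of group means from -1.92 to -1.21 for H2-Ea-ps, -0.72 to -0.51 for H2-Ob and 3.66 to 5.11 for H2-Q5. Cd74 and Fcgrt have no recovered reads, so no library could be left out.

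No paired analysis was possible because the table holds no values per sample and the recovered libraries carry no replicate number. For the same reason the planned edgeR fit was not run, nor were fits with a replicate left out. The interval of the H2-Q5 read ratio covers counting error only, those of fold changes come from the authors' deposited standard errors, and the depth of each named sample was not analysed here.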
